A study of Mus musculus with 24 samples.

Results

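The gamma and delta chains of the T cell receptor (TCR) were examined in TCR-seq libraries of BALB/c mouse spleen. An entry of the deposited clonotype lists was taken as a delta chain when its V and J segments were both named TRD, as a gamma chain when both were named TRG, and only when its CDR3 translated to letters alone. The CDR3 is the stretch, from the conserved cysteine codon to the phenylalanine codon, where the V, D and J segments are joined. These criteria kept 1431 TRD entries with 3363 reads and 448 TRG entries with 627 reads, out of 910331 TCR reads in 298487 entries over 8 libraries. The study compared spleens of a mouse CT-26 tumour model, in which cells of the CT-26 colon carcinoma line were injected into one side of the body at 8 weeks of age, with spleens of normal mice. It holds 4 libraries titled control and 4 titled CT-26 for each of RNA-seq, TCR-seq and BCR-seq. All are labelled as splenocytes of BALB/c mice, with no sex, no time after injection and no statement that mice were pooled, so the p-values measure the spread between these libraries.

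The titles and the treatment labels contradict each other. In the treatment field it is the titled controls that received CT-26 cells, while the other set is described there as healthy. The libraries are therefore called by title, differences are titled CT-26 minus titled control, and none is read as an effect of the tumour. A second caution concerns 2 libraries. Titled control 3 and titled CT-26 4 shared 1862 TRB rearrangements (the same V, J and CDR3 bases), 44.8% of the distinct TRB rearrangements of titled CT-26 4 and 74.6% of its TRB reads, whereas no other pair across the sets shared more than 111. They also shared 16 TRD rearrangements, against at most 4 in any other pair, and these held 54.4% of the TRD reads of titled CT-26 4 and 9.22% of those of titled control 3. They include 2 rearrangements that recur in other libraries, and the remaining 14 held 18.1% and 8.29%. Of the 10 TRG reads of titled CT-26 4, 7 belonged to rearrangements also found in titled control 3. The tested TCR measures are given with and without these libraries.

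Gamma delta T cells carry a receptor of one gamma and one delta chain in place of the alpha beta pair, and both receptor types need the CD3 proteins to reach the cell surface. The delta locus lies inside the alpha locus on mouse chromosome 14, so that some V segments can join either chain, and the gamma locus lies on chromosome 13. Waves of gamma delta T cells leave the fetal thymus before the enzyme terminal deoxynucleotidyl transferase adds random bases to the joints. Their receptors are nearly invariant, and the best known delta chain of this kind joins TRDV4, TRDD2 and TRDJ2 and pairs with TRGV5 chains in the epidermis or with TRGV6 chains in the uterus, tongue and other barrier tissues. Adult gamma delta T cells of the spleen mostly have diverse joints.

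Among the 1390 distinct TRD rearrangements, only 2 were found in 3 or more libraries, and both use TRDV4. They are shown with the germline ends they are built from, because each can be read as V, D and J germline bases with at most 2 palindromic bases at a segment end and no others. In the rearrangements, capitals mark the longest run shared with germline TRDD2, which begins with bases that TRDV4 also ends on. The germline segments are the C57BL/6J reference, since a BALB/c reference was not used here.
TRDV4 end: tgtgggtcagatatc
TRDD2: atcggagggatacgag
TRDJ1 start: ctaccgacaaactcgtcttt
TRDJ2 start: ctcctgggacacccgacagatgtttttt
TRDV4-TRDD2-TRDJ2: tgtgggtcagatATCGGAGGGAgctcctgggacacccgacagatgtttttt
TRDV4-TRDD2-TRDJ1: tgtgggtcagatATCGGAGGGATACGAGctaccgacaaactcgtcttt

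For contrast, the most abundant rearrangements of TRDV2-2, the commonest V segment among TRD entries, hold bases that no germline segment explains. The first had 23 reads and was found in titled control 4 alone. The second had 24 reads in titled control 3 and 6 in titled CT-26 4, the pair of libraries with many shared entries. Capitals again mark the run shared with TRDD2.
TRDV2-2 to TRDJ1, 51 bases: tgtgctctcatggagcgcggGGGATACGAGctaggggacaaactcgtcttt
TRDV2-2 to TRDJ1, 60 bases: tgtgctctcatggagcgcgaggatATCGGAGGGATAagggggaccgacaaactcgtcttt

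Gamma chains have no D segment, and their recurrent rearrangements are short. The following show the recurrent joints described in the results, chosen after their values were seen, and capitals mark bases of neither germline V, germline J nor the palindromic bases at their ends.
TRGV2-TRGJ2, 36 bases: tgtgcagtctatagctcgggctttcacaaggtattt
TRGV2-TRGJ2, 42 bases: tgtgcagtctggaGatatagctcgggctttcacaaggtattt
TRGV2-TRGJ2, 39 bases: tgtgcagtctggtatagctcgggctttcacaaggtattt
TRGV7-TRGJ1: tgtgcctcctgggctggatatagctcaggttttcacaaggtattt
TRGV6-TRGJ1: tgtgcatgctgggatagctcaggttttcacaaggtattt

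Delta chains took a larger share of the TCR reads in every library titled CT-26 than in any titled control. The TRD share was 0.322%, 0.315%, 0.284% and 0.325% in titled control 1 to 4, and 0.368%, 0.642%, 0.523% and 1.12% in titled CT-26 1 to 4. The means were 0.312% ± 0.0186 and 0.662% ± 0.323 (SD, n = 4 each), a rise of 0.351 percentage points (exact two-sided permutation test over 70 assignments, p = 0.0286, the smallest this design allows; 0.0286 after Benjamini-Hochberg adjustment over 4 tests). The sets do not overlap, and titled CT-26 4 stands highest. Without it the difference was 0.199 points, and without both it and titled control 3 it was 0.190 points with the sets still apart, where 20 assignments allow no p below 0.100.

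The rise depends on what the delta reads are set against. Alpha chains made up 34.5% of the pooled TCR reads in the titled control set and 57% in the titled CT-26 set, and beta chains 65.1% and 42.4%. As a share of alpha plus delta reads, TRD was 0.891% ± 0.0562 and 1.16% ± 0.524 (SD, n = 4 each), the sets overlapped and the difference was not called (exact permutation p = 0.371). Counted as distinct entries rather than reads, TRD was 0.451% ± 0.0203 and 0.881% ± 0.328 of TCR entries (SD, n = 4 each), also with overlap (exact permutation p = 0.143). How far the balance of alpha and beta reads sets the TRD share was not tested further.

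Gamma chains moved the other way. The TRG share was 0.0590%, 0.0940%, 0.0883% and 0.0784% in titled control 1 to 4, and 0.0236%, 0.0434%, 0.0163% and 0.0265% in titled CT-26 1 to 4, where it rests on 18, 14, 7 and 10 reads. It fell from 0.0799% ± 0.0153 to 0.0275% ± 0.0115 of TCR reads (SD, n = 4 each; exact two-sided permutation p = 0.0286, adjusted 0.0286), with no overlap between the sets. It was also lower against beta reads alone, at 0.123% ± 0.0244 and 0.0633% ± 0.0226 of beta plus gamma reads (SD, n = 4 each; exact permutation p = 0.0286). Titled CT-26 3, with 7 TRG reads of 42823 TCR reads, had an exact 95% binomial interval of 0.00657% to 0.0337%. Such intervals cover counting error only, since reads are not independent molecules.

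**Figure D1:**
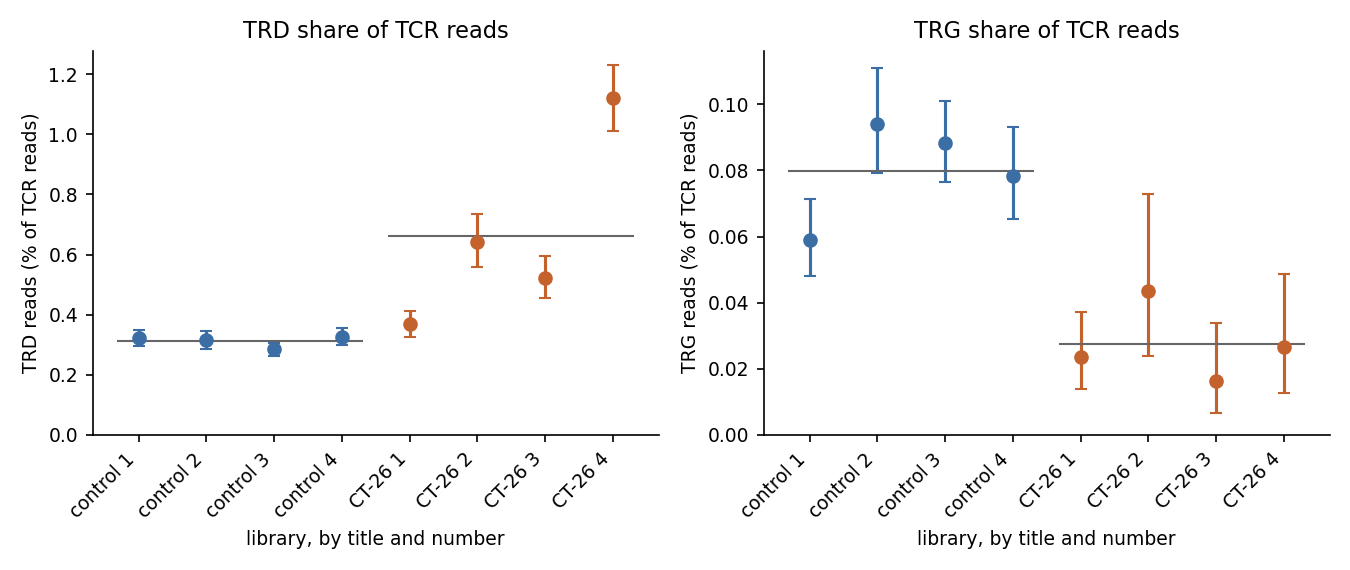
Share of TCR reads held by delta chains (left) and gamma chains (right), in percent, for each library by title and number. Points are libraries, whiskers exact 95% binomial intervals and grey lines set means; all 4 libraries titled CT-26 lie above the titled control set for TRD (0.368% to 1.12% against 0.284% to 0.325%) and below it for TRG.

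The delta reads did not come with a named constant region. Only 15 of 1431 TRD entries carried TRDC in the constant field, and 47 of 123570 TRA entries carried a constant segment, whereas all 448 TRG and all 173038 TRB entries did. The protocol names a kit for the alpha and beta chains, so both chains described here lie outside its named targets. The BCR-seq lists of the same study held 0 entries with V and J both of TRG or both of TRD.

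Among TRD entries, TRDV2-2 was the main V segment by pooled reads in both sets, and TRDV4 the second in the titled CT-26 set. There TRDV4 exceeded TRDV2-2 in libraries 2 and 4. V segments of the alpha locus joined to a TRDJ are outside this ranking. Of these, TRAV15-2/DV6-2 had more reads than TRDV2-2 in every titled control and in titled CT-26 2 and 3. It had fewer in titled CT-26 1 and 4. In the genome Trdv4 (GRCm39 chr14:54312362-54312972) lies upstream of the delta D and J segments. TRDV4 had 4, 11, 8 and 3 reads in titled control 1 to 4, and 22, 102, 40 and 231 reads in titled CT-26 1 to 4. Of the TRD reads, TRDV4 made up 0.705%, 2.28%, 1.23% and 0.565% in the first set and 7.86%, 49.3%, 17.9% and 54.9% in the second. The sets did not overlap, and within the titled CT-26 set libraries 2 and 4 were high and library 1 was low. The means were 1.20% ± 0.779 and 32.5% ± 23.1 (SD, n = 4 each; exact two-sided permutation p = 0.0286). After adjustment over the 2 V segments tested the p was 0.0571, which did not pass 0.05. Without titled control 3 and titled CT-26 4, the difference in means was 23.8 percentage points in place of 31.3, and the sets stayed apart.

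TRDV2-2 took 89.4%, 86.9%, 79.4% and 88.3% of TRD reads in titled control 1 to 4, and 91.4%, 40.6%, 73.2% and 42.3% in titled CT-26 1 to 4. Titled CT-26 1 exceeded every titled control, so the sets overlap, and the means of 86.0% ± 4.52 and 61.9% ± 24.8 were not separated (SD, n = 4 each; exact permutation p = 0.143, adjusted 0.143). Without titled control 3 and titled CT-26 4 the difference was -19.8 percentage points in place of -24.1, and the sets still overlapped. The difference cannot be said to be absent at this spread. These shares are parts of a whole, so a library with more TRDV4 has less room for TRDV2-2.

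The share of TCR reads held by delta chains without TRDV4 differed less. Leaving out all TRDV4 entries, TRD was 0.308% ± 0.0192 and 0.401% ± 0.0846 of TCR reads (SD, n = 4 each), still without overlap (exact permutation p = 0.0286, adjusted 0.0381). That is a difference of 0.0928 percentage points against 0.351 with TRDV4. Leaving out TRDV4, here and below for CDR3 length and distinct rearrangements, was not planned before the values were seen. The lowest library titled CT-26 was then at 0.327% and the highest titled control at 0.323%. Alpha chains were 34.5% and 57.0% of the pooled TCR reads in the titled control and titled CT-26 sets. Against alpha plus delta reads the full TRD share was not called, as given above. The share without TRDV4 was not set against them, so whether it is higher on that base was not tested.

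TRDV1 had 131 reads (5.87% of TRD reads) pooled over the titled control set and 6 (0.530%) over the titled CT-26 set. Each titled control had between 3.58% and 8.29% of its TRD reads on TRDV1, and each library titled CT-26 between 0.357% and 0.966%. TRDV5, which lies beyond the delta constant gene in the opposite orientation and joins by inversion, had 95 and 16 reads. TRDV2-1 had 67 and 33 reads, or 3% and 2.92%. TRDV3 was in no entry. These segments were below the share at which a V segment was tested.

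**Figure D2:**
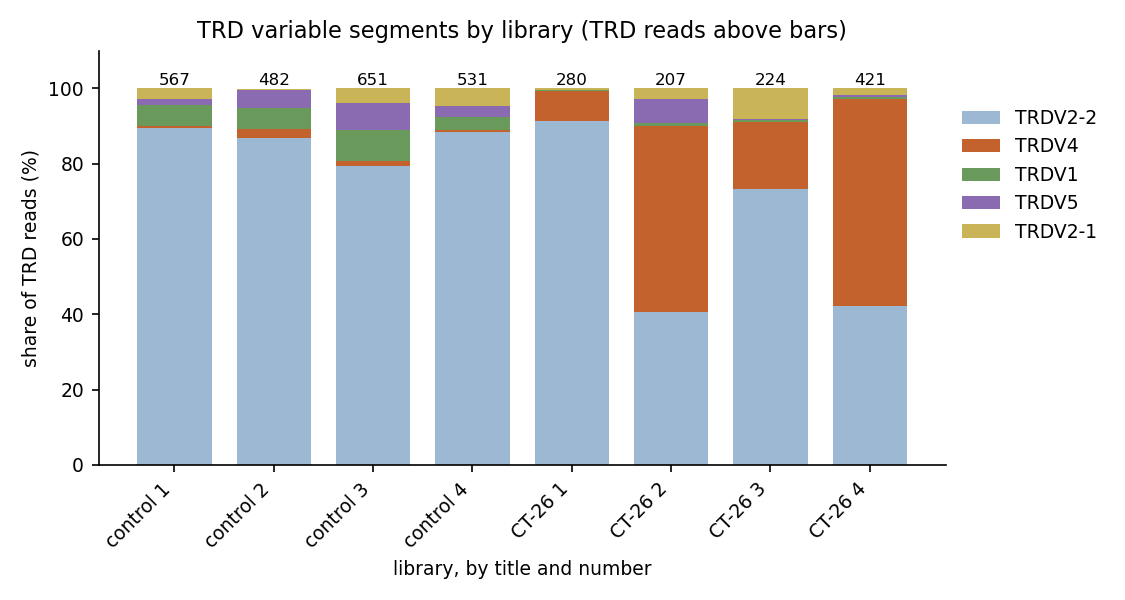
Share of TRD reads, in percent, taken by each delta V segment in each library; the TRD read number stands above each bar. TRDV4 takes 7.86% to 54.9% in the libraries titled CT-26 and at most 2.28% in the titled control set.

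The J segments followed the V segments. TRDJ1 took 98.8% and TRDJ2 1.21% of TRD reads in the titled control set, against 77.6% and 22.4% in the titled CT-26 set. Of the 254 TRDJ2 reads of the second set, 253 were joined to TRDV4, as were 18 of the 27 in the first. TRDV2-2 was joined to TRDJ2 in 1 read only. TRDD2 was the D segment named for 87.4% and 88.9% of TRD reads, and TRDD1 for 7.04% and 3.18%. TRDD1 was named in all 4 titled controls and in 2 libraries titled CT-26.

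The TRDV4-TRDD2-TRDJ2 rearrangement printed above was present in 8 of 8 libraries. It had 3, 3, 4 and 1 reads in titled control 1 to 4, and 14, 35, 19 and 108 reads in titled CT-26 1 to 4. In share of TRD reads it ran from 0.188% to 0.622% in the first set and from 5% to 25.7% in the second, and the sets did not overlap. Per 100000 TCR reads it ran from 0.612 to 1.96 and from 18.4 to 287. With 11 reads in all 4 titled controls together, the levels of the first set rest on very few reads.

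The related TRDV4-TRDD2-TRDJ1 rearrangement was present in 6 of 8 libraries. It had 0, 3, 2 and 2 reads in titled control 1 to 4, and 0, 19, 6 and 45 in titled CT-26 1 to 4. The 2 libraries without it were the first of each set, so for this rearrangement the sets overlap. Together the pair accounted for between 52.9% and 66.2% of the TRDV4 reads of each library titled CT-26.

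**Figure D3:**
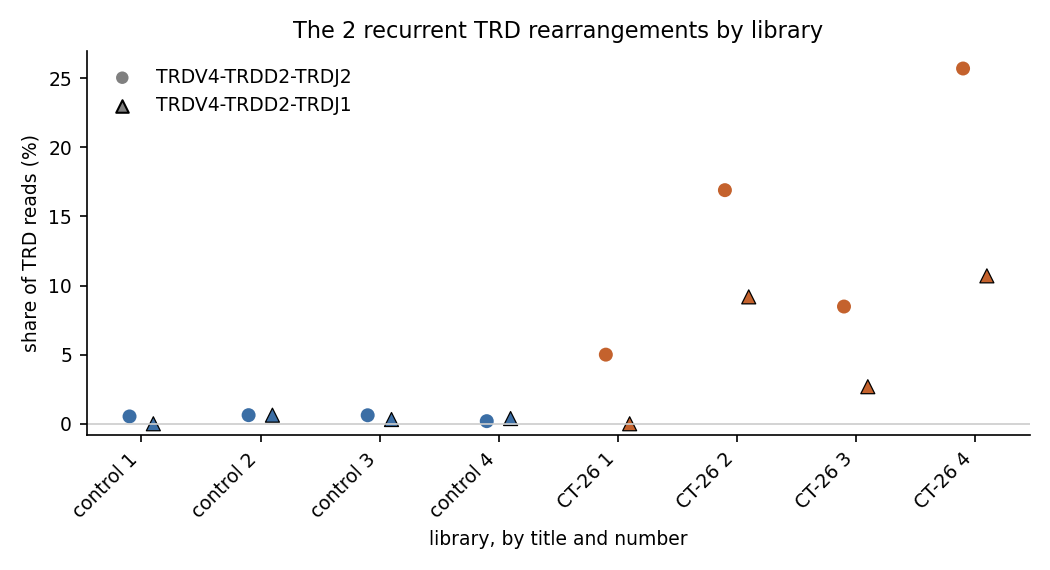
Share of TRD reads, in percent, of the 2 rearrangements found in 3 or more libraries, by library. Circles are TRDV4-TRDD2-TRDJ2, from 5% to 25.7% in the libraries titled CT-26 and at most 0.622% in the titled control set; triangles are TRDV4-TRDD2-TRDJ1.

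Part of the remaining TRDV4 entries were close copies. In the libraries titled CT-26, 2 of 6, 12 of 38, 4 of 15 and 7 of 40 distinct TRDV4 rearrangements differed by 1 substitution from a more abundant one of the same library, V, J and length. For all TRD rearrangements these numbers were 22 of 72, 24 of 89, 24 of 73 and 30 of 103, and in titled control 1 to 4 they were 50 of 261, 48 of 232, 55 of 341 and 35 of 256. Sequencing error and true diversity were not separated by these lists.

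Joints made of germline bases alone held 119 of 2231 TRD reads (5.33%, exact 95% interval 4.44% to 6.35%) in the titled control set and 346 of 1132 (30.6%, 27.9% to 33.3%) in the titled CT-26 set. By library they held 4.14% to 6.85% and 10.7% to 49.6%, which do not overlap. Of the germline-only reads, 18 of 119 and 304 of 346 were TRDV4, and these were 18 of 26 and 304 of 395 of all TRDV4 reads. Without titled control 3 and titled CT-26 4, the germline-only shares of TRD reads were 5.32% and 19.3%. Outside TRDV4 the shares were 4.58% and 5.70% of 2205 and 737 reads. TRDV2-2 reads had a median of 10 and 9 bases outside the V end, the J start and the longest D stretch. TRDV4 reads had a median of 0 in both sets. Bases of a second D segment stay in this count unless the whole joint was germline, so it is an upper limit of the unexplained bases. No test was made, as these shares were chosen with the TRDV4 values known.

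The delta joints were shorter on average in the titled CT-26 set. The mean CDR3 length over reads was 18.8, 18.2, 18.5 and 19.1 amino acids in titled control 1 to 4, and 17.7, 17.3, 18.0 and 17.8 in titled CT-26 1 to 4. The means were 18.7 ± 0.416 and 17.7 ± 0.298 (SD, n = 4 each), a fall by 0.954 amino acids with no overlap (exact two-sided permutation p = 0.0286, adjusted 0.0286). Without TRDV4 entries the means were 18.7 ± 0.407 and 18.4 ± 0.789, the sets overlapped and the call was lost (exact permutation p = 0.514). TRDV4 joints centred on 17 amino acids, which held 69.2% of their reads in the titled control set and 57.5% in the titled CT-26 set.

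**Figure D4:**
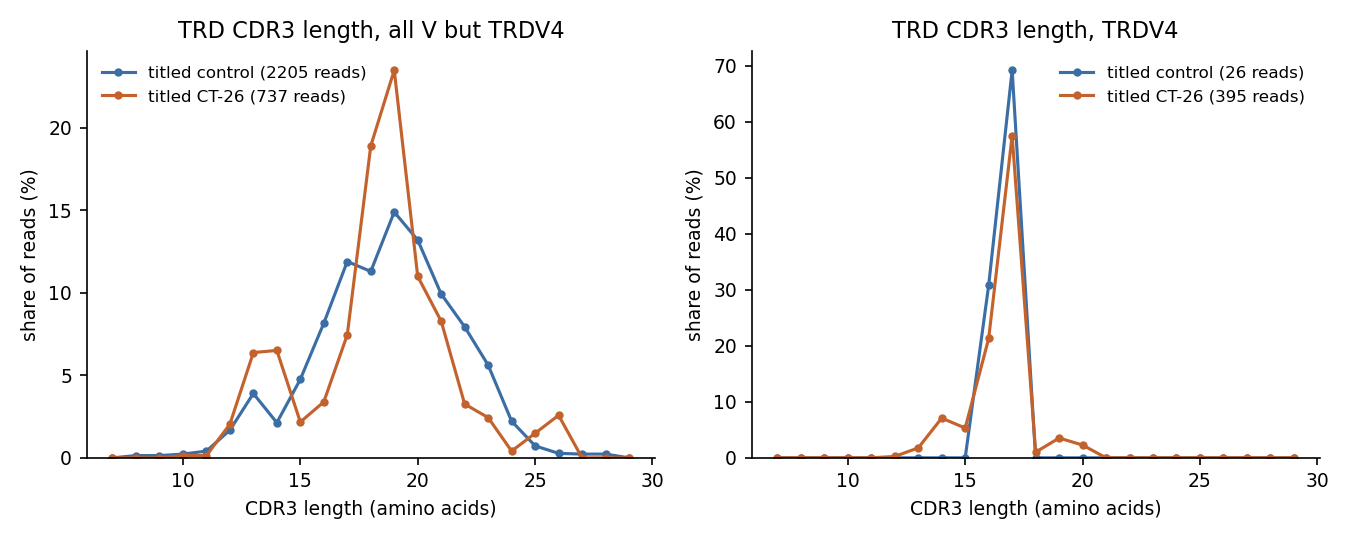
Length of the delta CDR3, in amino acids, against the share of reads, in percent, pooled over the 4 libraries of each set. Outside TRDV4 (left) both sets peak at 19 amino acids, and TRDV4 (right) peaks at 17 in both.

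Fewer distinct delta rearrangements were seen per read in the titled CT-26 set. At 207 TRD reads, the number in the smallest library, titled control 1 to 4 were expected to hold 140, 136, 155 and 141 distinct rearrangements, and titled CT-26 1 to 4 held 58.9, 89.0, 69.0 and 60.8. The means were 143 ± 8.52 and 69.4 ± 13.8 (SD, n = 4 each), with no overlap (exact two-sided permutation p = 0.0286, adjusted 0.0286). The difference was also called without TRDV4 entries, at 84.6 ± 3.17 and 42.6 ± 5.76 per 105 TRD reads (SD, n = 4 each; exact permutation p = 0.0286, adjusted 0.0381). Most rearrangements belonged to 1 library: 1363 of 1390 were found in a single one. Entries of 1 read made up 654 of 1093 TRD entries in the first set and 253 of 338 in the second. Alpha and beta chains also had fewer entries per read in the titled CT-26 set, though not compared at equal reads. Pooled, TRA had 98385 entries for 249053 reads in the titled control set and 25185 for 107605 in the titled CT-26 set. TRB had 155072 for 469542 and 17966 for 80141. A lower number per read is therefore not particular to delta chains. How many cells or molecules went into each library is not given, and their part in the delta difference was not tested.

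Gamma reads used mainly TRGV2 and TRGJ2. Of 578 TRG reads in the titled control set, TRGV2 took 356 (61.6%), TRGV1 75 (13.0%), TRGV4 71 (12.3%) and TRGV7 45 (7.79%). Of 49 reads in the titled CT-26 set, TRGV2 took 26 (53.1%), TRGV1 11 (22.4%), and TRGV3, TRGV4 and TRGV5 3 each (6.12%, exact 95% interval 1.28% to 16.9%). With 49 reads over 4 libraries in the second set, differences in gamma V use between the sets were not tested. TRGV4 marks one of the main gamma delta populations of lymphoid tissue, and TRGV7 is typical of the gut epithelium.

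TRGJ2 held 445 and 41 reads and TRGJ1 129 and 8. TRGV4, TRGV6 and TRGV7 were joined to TRGJ1 in every entry, and TRGV1, TRGV2 and TRGV3 to TRGJ2 or TRGJ3. TRGJ3 held 4 reads, all in the titled control set. No entry held TRGJ4, and whether the lists can name that segment was not tested. TRGV1, TRGV2 and TRGV3 end on almost the same bases, and 23 of their 254 distinct CDR3 sequences, with 141 of 489 reads, were listed under more than 1 of them. Their separate shares are therefore uncertain. The 39-base TRGV2-TRGJ2 joint printed above was also listed under TRGV1 and TRGV3. The 42-base joint printed above, with 7 reads in 5 libraries under TRGV2, was also listed under TRGV1 with 6 reads.

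The recurrent gamma joints were mostly low in reads. Of 384 distinct TRG rearrangements, 14 were found in 3 or more libraries, with 100 reads in all. The 36-base TRGV2-TRGJ2 joint, made of germline bases only, had 5, 1 and 1 reads in titled control 2, 3 and 4 and 2 and 1 in titled CT-26 1 and 2. TRGV7-TRGJ1 had 2, 4, 3 and 1 reads in titled control 1 to 4 and none in the other set. TRGV6-TRGJ1 had 1, 2 and 1 reads in titled control 2, titled control 3 and titled CT-26 1. Of the gamma segments known to pair with the invariant TRDV4 chain, TRGV5 held 6 and 3 reads in the titled control and titled CT-26 sets and TRGV6 7 and 2. The TRG joint with most reads, a 30-base TRGV2-TRGJ2 joint with 26, was found only in titled control 3 (21 reads) and titled CT-26 4 (5 reads).

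Germline-only gamma joints held 78 of 578 reads (13.5%, exact 95% interval 10.8% to 16.6%) and 16 of 49 (32.7%, 19.9% to 47.5%). The median gamma CDR3 was 14.0 and 13.0 amino acids over reads.

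Entries that join a V segment of the alpha locus to a TRDJ segment fell outside the criteria but can be delta chains, since several V segments serve both loci. V segments with a joint alpha and delta name and a TRDJ held 4838 reads in the titled control set and 546 in the titled CT-26 set, more than the TRD reads of the first set. TRAV15-2/DV6-2 led them with 756, 789, 958 and 981 reads in titled control 1 to 4, and 43, 198, 185 and 0 in titled CT-26 1 to 4. Per 100000 TCR reads that was 429, 515, 419 and 601, against 56.4, 614, 432 and 0, so libraries 2 and 3 of the second set lie in or above the range of the first. The absence in titled CT-26 4 allows at most 7.96 per 100000. With all joint V segments counted as delta chains, TRD was 0.980% ± 0.0973 and 0.985% ± 0.324 of TCR reads (SD, n = 4 each), and the higher TRD share of the titled CT-26 set was no longer called (exact permutation p = 0.971). V segments with an alpha name only and a TRDJ held 2119 and 628 reads in the 2 sets and were not counted in that share. In titled CT-26 4 they held 235 reads, where V segments with a joint name held 8. V segments of TRD joined to a TRAJ, which are alpha chains by their J segment, held 6321 and 4951 reads.

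In the RNA-seq libraries of the same titles, the gamma and delta constant genes were lower in the titled CT-26 set. These libraries held between 735298 and 1970950 counts, and whether they and the TCR-seq libraries of equal number share an animal is not stated. Over all genes, edgeR's quasi-likelihood test called 2740 of 6408 tested genes (42.8%) at an adjusted p of 0.05, 21.6% lower and 21.2% higher. Without TMM scaling the median gene moved from -0.02 to 0.35 on the log2 scale, and the calls were 725 lower and 1936 higher. In bulk RNA, fewer cells of a type and less RNA per cell cannot be told apart.

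Trdc, the only delta constant gene (GRCm39 chr14:54380308-54386325), had 31, 66, 28 and 41 counts in titled control 1 to 4 and 7, 8, 8 and 7 in titled CT-26 1 to 4. Scaled to a library total of 1000000 counts (CPM) that was 33.9 ± 9.92 and 6.80 ± 0.938 (SD, n = 4 each), with every titled control above every library titled CT-26. It fell by 2.32 on the log2 scale (SE 0.34; edgeR adjusted p = 2.30e-06). Its last bases overlap Trdv5 on the other strand, and the counts were made without strand. Trdv5 itself had no count.

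Among the gamma constant genes on chr13, Tcrg-C4 had 21, 40, 24 and 22 counts against 3, 1, 2 and 5, and fell by 3.11 (SE 0.47; edgeR adjusted p = 4.22e-06). Tcrg-C2 had 25, 34, 16 and 10 against 15, 5, 2 and 3, and fell by 1.69 (SE 0.52; edgeR adjusted p = 0.0109), with titled CT-26 1 inside the range of the titled controls. Without titled control 3 and titled CT-26 4 it was not called, at a similar log2 difference of -1.58 (edgeR adjusted p = 0.0632) with fewer libraries. Tcrg-C1 had 12, 41, 10 and 14 against 3, 2, 6 and 1 and was too low to be tested. Tcrg-C3 had no count. So 3 of the 5 constant genes were tested and all 3 were lower, with a median of -2.32 beside -0.02 over all tested genes and a background of 21.6% called lower. Trdc and Tcrg-C4 passed the filter on counts only through the titled controls, so this tally leans towards lower calls. Tcrg-C4 is the constant gene behind TRGJ4, the J segment that no TCR entry held. The 31 variable, diversity and joining genes were nearly silent in these counts: 26 had no count in any library and none was tested.

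**Figure D5:**
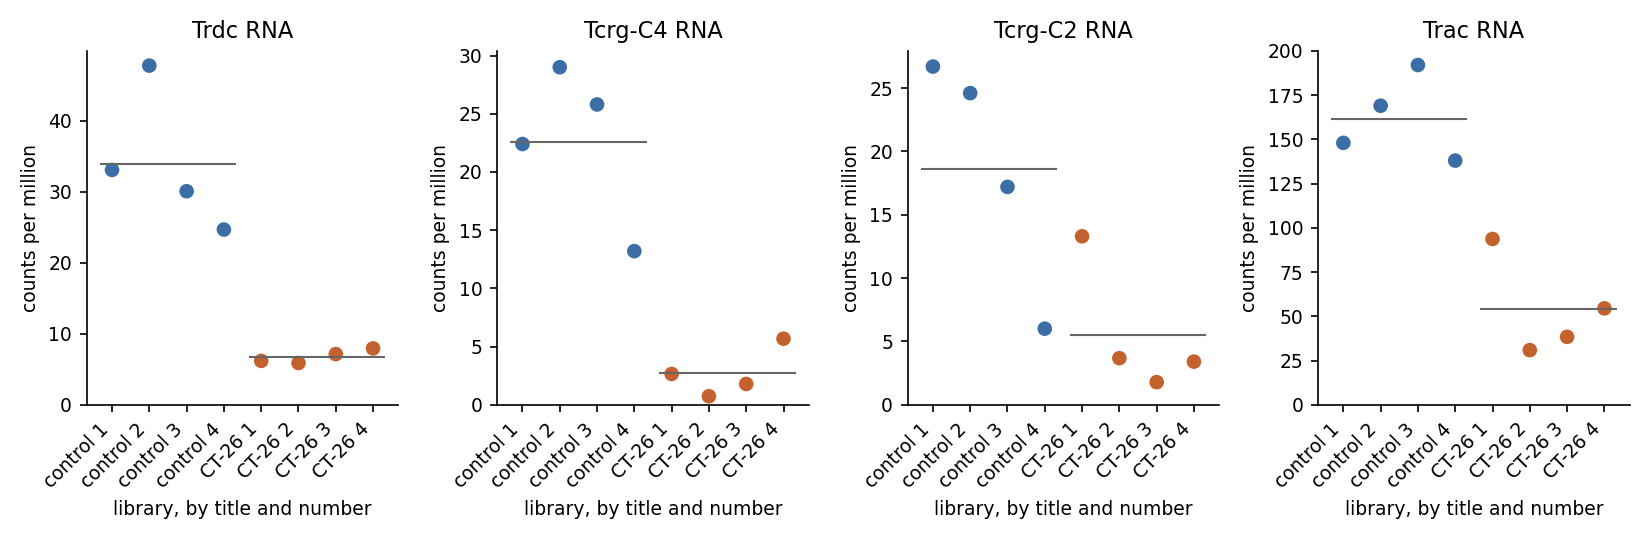
Level in CPM of Trdc, Tcrg-C4, Tcrg-C2 and the alpha constant gene Trac in each RNA-seq library, with grey lines at set means. Trdc, Tcrg-C4 and Trac are lower in all 4 libraries titled CT-26 than in any titled control; Tcrg-C2 is not.

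The other T cell receptor genes fell too. Trac had a mean of 162 ± 24.1 and 54.4 ± 28.0 CPM (SD, n = 4 each) and fell by 1.57 on the log2 scale, and Trbc1 and Trbc2 fell by 2.58 and 2.33 (edgeR adjusted p = 2.58e-05, 1.24e-08 and 5.03e-07). All 4 genes of the CD3 complex were lower, with a median of -1.67, though Cd3d was not called without TMM scaling (edgeR adjusted p = 0.0575). Over all tested genes, 21.6% were called lower. Set against the alpha constant gene within each library, Trdc was 22.3, 28.3, 15.6 and 17.9 counts per 100 Trac counts in titled control 1 to 4, and 6.60, 19.0, 18.6 and 14.6 in titled CT-26 1 to 4. The sets overlap, and the means of 21 ± 5.59 and 14.7 ± 5.77 were not separated (SD, n = 4 each; exact permutation p = 0.200). The gamma constant genes were 4.89 ± 1.42 and 5.04 ± 1.63 per 100 counts of Trbc1 and Trbc2 (SD, n = 4 each; exact permutation p = 0.886). Adjusted over these 2 ratios the p-values were 0.4 and 0.886, and both ratios were added after the counts were seen.

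Genes known from gamma delta T cell subsets were low or not particular to these cells. Of 18 such genes, 6 were tested, 5 were lower and 1 was higher, beside 21.6% lower and 21.2% higher over all tested genes. Id3, Cd27 and Maf passed the filter on counts only through the titled controls, and Il1r1 only through the libraries titled CT-26. Id3, a regulator induced by gamma delta receptor signals, fell by 3.02 (edgeR adjusted p = 1.57e-09), and Cd27, a receptor of interferon-producing gamma delta cells, fell by 2.35 (edgeR adjusted p = 9.99e-07). Maf, a factor of the interleukin 17 programme, fell by 2.13 (edgeR adjusted p = 3.06e-06). Blk, a kinase that B cells also express, fell by 1.44 (edgeR adjusted p = 8.84e-05). Il2rb, a cytokine receptor shared with NK cells, fell by 0.85 (edgeR adjusted p = 0.0203), a call lost without TMM (0.267). Il1r1, the interleukin 1 receptor, had 4, 2, 1 and 2 counts against 12, 20, 17 and 14 and rose by 2.85 (SE 0.50; edgeR adjusted p = 3.35e-05). Il17a had 3 counts in titled CT-26 4 and none elsewhere, Il23r had 1 in the same library, and Cd163l1 had none. Zbtb16, Sox13 and Ccr6 had at most 9, 5 and 4 counts in a library and were not tested.

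Markers of several other cell types differed between the same libraries. The summed level of 6 NK cell markers ranged from 133 to 330 CPM over the titled controls and from 12.5 to 24.8 over the libraries titled CT-26. For Cd8a and Cd8b1 the ranges were 58.7 to 85.9 and 5.36 to 10.2, and for 3 B cell markers 810 to 1189 and 122 to 230. NK and B cells are sources of Il2rb and Blk, and the part of these cells in the values above was not tested. All tested members of these 3 lists were lower, 3 of 3 for NK, 2 of 2 for CD8 and 3 of 3 for B cells. The share called lower over all tested genes was 21.6%. The tested NK and CD8 genes passed the filter on counts only through the titled controls, so their tallies lean towards lower calls. The NK receptor gene Ncr1 had no count in titled CT-26 2 and 4. Of the innate lymphoid markers, Il7r fell by 1.78 and Kit rose by 1.06 on the log2 scale (edgeR adjusted p = 1.31e-06 and 0.0212), and 2 were not tested. Of the markers of red pulp macrophages, a cell type of the spleen, Spic fell by 3.31 and Slc40a1 fell by 2.67 (edgeR adjusted p = 4.24e-09 and 1.49e-10), and Vcam1 was not called (log2 difference 0.39, edgeR adjusted p = 0.129). Of 4 markers of developing thymocytes, Rag1, Rag2 and Ptcra had no count in any library, and Dntt had 1 count in each of titled control 2, titled CT-26 2 and titled CT-26 3.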

How the data were processed

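The members, gene lists and tests were chosen with earlier results of these data known. The TCR and BCR tables were deposited by the authors as a read count for each assembled CDR3 with its V, D, J and C segments. Their program is not given in the sources. Allele suffixes were dropped, and the authors' fractions were not used. Deposited CDR3 lengths were all multiples of 3. RNA tables were deposited as raw counts per gene, made with featureCounts 2.0.1 on GENCODE M29 models without strand, per the file headers. Per the submitters' processing notes, Trimmomatic 0.39 and STAR 2.7.10a were used, and GRCm39 and GRCm38 are both listed.

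Shares use the reads of all entries with V and J of one chain and a CDR3 of letters alone. Libraries held 32233 to 228860 such reads. Sets were compared by exact permutation over 70 assignments, two-sided, with Benjamini-Hochberg adjustment over 4 measures, or over the 2 V segments with at least 5% of the pooled TRD reads. Distinct rearrangements at equal reads are exact hypergeometric expectations. Joints were compared with germline ends from GENCODE transcripts of the C57BL/6J reference, allowing 2 palindromic bases and a D stretch of at least 4 bases, so strain differences count as unexplained bases. V and J segments with at least 5% of a chain's reads in either set are named with values, as are rearrangements in 3 or more libraries and the 3 with most reads per set and chain, of which a selection is printed. Listed genes are named by list, and 1 of them is not reported here.

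RNA counts were filtered with filterByExpr, scaled by TMM and tested with edgeR 4.0.16 (robust quasi-likelihood, threshold 0.05); DESeq2 1.42.0 was an alternative. The script was checked on simulated counts. Of 55414 gene IDs, 52081 matched a symbol. CPM use TMM-scaled totals.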

Additional observations from a re-analysis of the deposited data

Results flagged for a closer look

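In 50 groups of 4 libraries checked for a value far from the other 3, 3 stood apart, where chance gives about 5%. Tcrg-C2 stood at 13.3 CPM in titled CT-26 1, the next library of its set being at 3.68 CPM. Blk stood at 46.3 CPM in titled control 4, below the next at 71.0 CPM. Il1r1 stood at 4.27 CPM in titled control 1, above the next at 1.45 CPM.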

How the results depend on the processing

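The replicate block, an exact sign-flip test of equal numbers over 16 sign patterns, cannot go below p = 0.125. It gave an adjusted p of 0.125 for the TRD share (difference 0.351), the TRG share (-0.0524), distinct rearrangements (-73.7) and CDR3 length (-0.954), and 0.250 for TRDV2-2 and TRDV4. In RNA the block gave 1340 higher and 1328 lower genes. Equal-numbered RNA libraries correlated at 0.08, -0.09, -0.05 and 0.01 in their deviations from set means, and only number 1 correlated best with its own number, so the numbers do not show a pairing.

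The TRD difference was 0.430 over distinct entries (adjusted p = 0.143), 0.270 over alpha plus delta reads (0.371) and 0.00422 with joint V entries (0.971). Leaving out single libraries, it ran from 0.199 to 0.449, and leaving out any 1 titled control gave an adjusted p of 0.0571. The ranges were -0.0594 to -0.0478 for TRG, -85.0 to -69.6 for distinct rearrangements, -1.12 to -0.793 for CDR3 length (adjusted p of 0.0571 without any 1 library titled CT-26), -34.0 to -17.0 for TRDV2-2 and 23.8 to 39.5 for TRDV4, where both segments were called without titled CT-26 1 (adjusted p = 0.0286). Without titled control 3 and titled CT-26 4 the differences were 0.190, -0.0494, -66.7 and -1.05, where p cannot go below 0.100. CDR3 length without TRDV4 differed by -0.288. Removing the entries those libraries share, joining entries 1 substitution apart, and dropping 1-read entries kept all 4 calls, and taking entries with stop codons did too. Without TMM, 725 genes were lower. No sign reversed among 208 values of 16 listed genes, and 10 lost their call, mostly Il2rb. Gamma reads, at most 18 per library titled CT-26, limit what can be said of gamma segments there.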
